A study of Homo sapiens with 3 samples.

Results

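To describe the early response genes of lung cancer cells given cordycepin or cordyceps, the probes of 10 genes were examined on the arrays of A549 cells, a cell line from a human lung adenocarcinoma. The genes were EGR1, EGR2, EGR3, IER2, IER3, IER5, KLF4, KLF6, MYC and ZFP36. Members were chosen by name: every non-control probe whose transcript maps to 1 of these symbols was taken, which gave 12 probes of the 58191 probes with a value on all 3 arrays, and 10 genes of the 22435 genes that could be named. The control cells received 0.1% DMSO, the second culture received cordycepin at 60 μg/mL, and the last received cordyceps at 100 μg/mL, each for 48 h. Cordycepin is an analog of the nucleoside adenosine, and the preparation of the cordyceps is not given in the sources used here. The medium of all cultures was DMEM with 10% fetal bovine serum and 1% penicillin-streptomycin. For every culture the labels also list zinc sulfate at 16.7 μM, troglitazone at 10 μM and nicotinamide at 10 mM. The methods of the paper do not name these additions, and whether these cultures held them could not be checked. There was 1 array per condition (n = 1), so each difference below is a difference between single arrays, without replicate error and without a p-value. Both treatments were set against the same control array, and their doses differed.

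Immediate early genes are transcribed within minutes of a growth factor, cytokine or stress signal, without a need for new protein, and their mRNAs and proteins are short-lived. Serum response factor and its cofactors drive many of them through the CArG box of the serum response element, and AU-rich elements in the mRNAs speed their decay. The EGR and KLF genes encode zinc finger transcription factors, MYC encodes a transcription factor of growth and proliferation, and ZFP36 encodes tristetraprolin, a protein that binds AU-rich elements and promotes the decay of cytokine mRNAs. The arrays measured these genes after 48 h of treatment, and no earlier time was measured.

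The 75th percentile of the processed signal, used to scale each array, was 260.1 for control, 224.3 for cordycepin and 260.2 for cordyceps, and between 24505 and 28494 probes were well above background. All 6 epithelial markers examined were well above background on the 3 arrays, with a summed signal of 387678 to 465015. Of 3 leukocyte markers found, PTPRC was detected on all arrays, and the summed signal of the markers was 89.4 to 117. The 3 endothelial markers summed to 93.9 to 105, with none detected on all arrays, and the 3 fibroblast markers summed to 229 to 356, with COL1A1 detected on all. In RNA of a whole culture, a lower share of cells with a transcript and less of it per cell cannot be told apart.

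A region of the array in the lower right corner held 18.6% of the probes, and 8.03% of its probes were at least 2-fold higher on the cordyceps array than on the control array, compared with 1.37% of the other probes. In the comparison of cordycepin with control the shares were 3.28% and 3.76%. Of the members, IER5 lay wholly in this corner and MYC had 3 of its 10 spots there. The part of the corner in the value of IER5 was not tested beyond the values given with that gene.

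**Figure D1:**
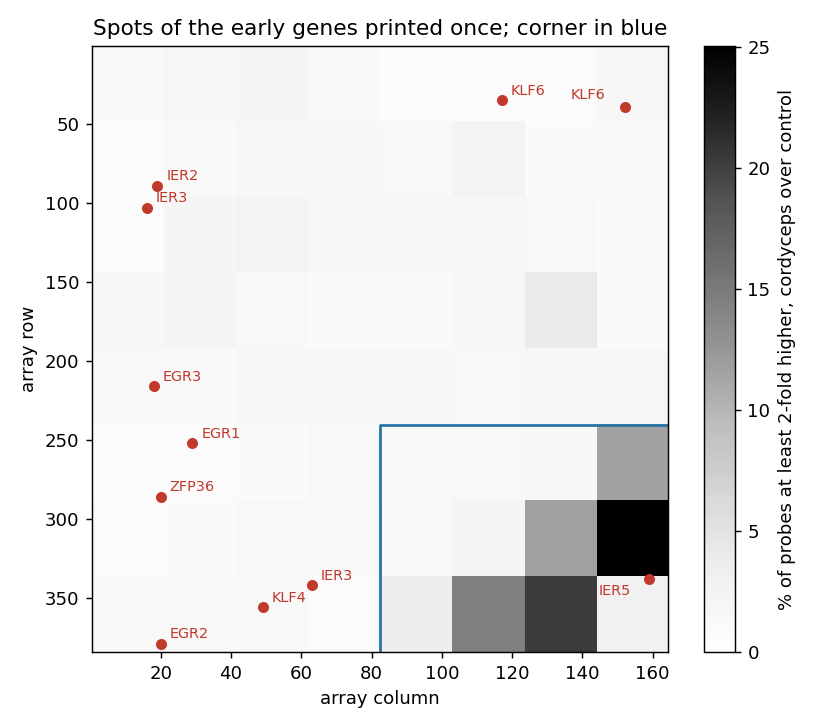
Position on the array of the 11 member probes printed once (red points), by array row and array column; the 10 spots of the MYC probe are not drawn. The shading gives the percentage of probes in each block that were at least 2-fold higher on the cordyceps array than on the control array, and the blue line encloses the corner, in which IER5 is the one member shown.

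Of the 10 genes, 8 were well above background on every array, and none of them differed 2-fold between any pair of arrays. With cordycepin, 0 of 8 genes were at least 2-fold higher than in control cells and 0 were lower, against 5.95% and 3.57% of all named genes. With cordyceps, 0 of 8 were higher and 0 were lower, against 4.19% and 3.15% of all genes. The 4.19%, also used for the lists below, includes genes with probes in the corner. There 8.03% of probes were higher with cordyceps, beside 1.37% outside it. Of the 8 measured members, 6 lay wholly outside the corner. The median log2 ratio of the 8 genes was -0.03 with cordycepin and -0.06 with cordyceps, beside -0.05 and -0.11 over all named genes measured on both arrays. As a measure of technical error, the SD of the log2 ratio of a single probe was 0.35 for cordycepin and 0.34 for cordyceps, estimated from the 2 brightest probes of 3356 genes. It rests on the difference between the 2 probes of a gene on the same arrays. Error shared by all probes of an array is therefore not in it, while differences between transcripts of a gene may be. By the brightest probe, 4 of the 8 genes lay within 1 such SD of 0 with cordycepin and none lay beyond 2 SD. With cordyceps, 4 lay within 1 SD and IER5 lay at about 2 SD. A robust estimate of this SD was smaller, 0.25 for cordycepin and 0.20 for cordyceps. By it EGR1 and IER3 lay beyond 2 SD with cordycepin, and EGR1, IER5 and ZFP36 with cordyceps. With a lower threshold of 1.5-fold, EGR1 was higher and IER3 lower with cordycepin, where 13.3% and 11.8% of all genes were called. With cordyceps, 0 of the 8 were higher and IER5 was lower, where 8.3% and 12.5% were called.

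**Figure D2:**
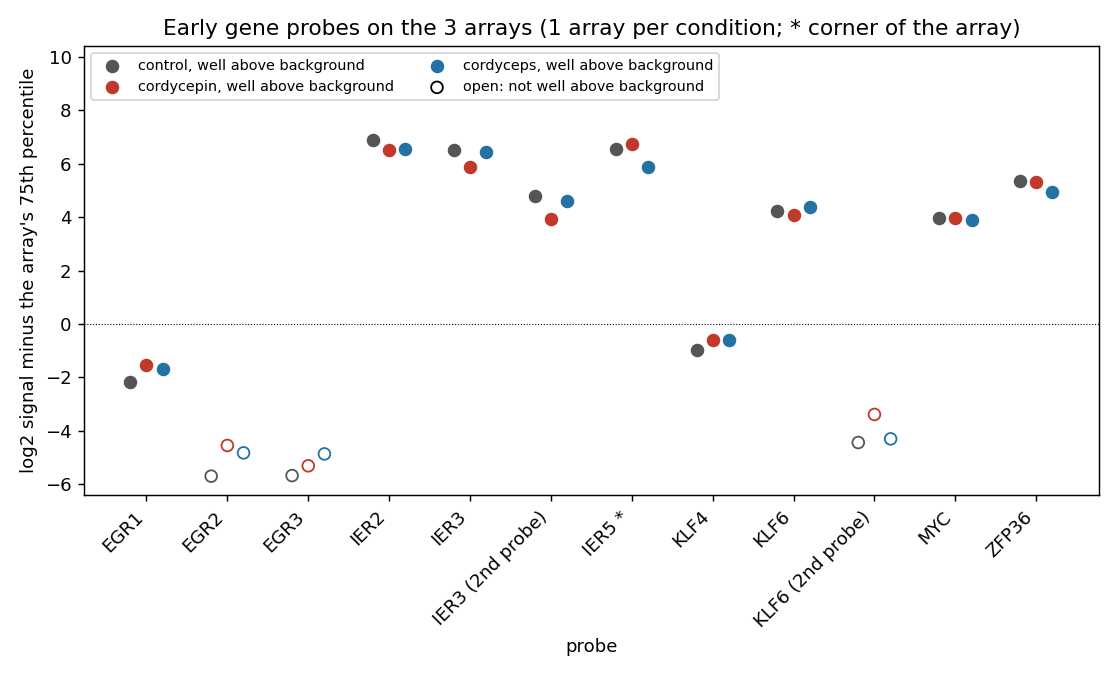
Level of each member probe on the control (grey), cordycepin (red) and cordyceps (blue) arrays, as log2 of the signal minus the 75th percentile of the array, with 1 array per condition and no error bars. Levels are to be compared within a probe and not between probes; open circles, which include all points of EGR2 and EGR3, were not well above background.

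The probes of the EGR genes lay below the 75th percentile on every array. EGR1, a zinc finger factor induced by growth factors, had a signal of 58.0 in control cells, 78.3 with cordycepin and 81.8 with cordyceps, and the scanner software gave each signal an error of 7.61, 9.59 and 12.0. Relative to the 75th percentile of each array the levels were 0.223, 0.349 and 0.314. EGR1 was therefore lowest in control cells and close to equal in both treated cultures. The log2 ratio to control was 0.65 with cordycepin, or 1.57-fold higher, and 0.50 with cordyceps, or 1.41-fold higher. As large a log2 ratio in either direction was found for 18.4% of genes with cordycepin and 26.1% with cordyceps. Among 1059 genes whose dimmer probe lay within 2-fold of the level of EGR1, the technical SD was 0.41 for cordycepin and 0.43 for cordyceps. The brighter probe of each pair could be of any level, so the spread of a probe as dim as EGR1 may be larger. Over the alternative settings the ratio to control was 0.38 to 0.69 with cordycepin and 0.27 to 0.77 with cordyceps.

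EGR2, which is known for its part in myelination and in lymphocyte tolerance, had signals of 5.04 in control cells, 9.62 with cordycepin and 9.22 with cordyceps. The signal was not well above background on any array, and on the cordycepin array alone was it positive and significant by the test of the scanner software. EGR3, a related factor induced in lymphocytes and neurons, had signals of 5.12, 5.68 and 8.97 and was not well above background on any array. The dimmest probe that counted as detected had a signal of 18.6 in control cells, 21.8 with cordycepin and 34.5 with cordyceps, so levels of EGR2 and EGR3 under these values could not be compared.

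The promoters of EGR1 and EGR2 are shown because both carry the CArG box, the binding motif of serum response factor. For 7 of the 10 genes, windows of the 250 bases before a transcription start were searched. They came from the RefSeq table of GRCh38.p14, which is not the build of the array design. No window of IER3, EGR3 or MYC was searched. Member windows on the chromosome of EGR3 and MYC were left out beforehand, so a lack of windows cannot be read from this for these genes. The windows of all genes and of the other early genes were not restricted in this way. The windows were searched on both strands. A CArG box was found in EGR1 and EGR2 and in none of the other 5 genes, and in 1.16% of 35116 windows of all genes. It was found in 0 of 18 genes with a window from the list of other immediate early genes described below. Bases further than 250 from the start were not searched, so a CArG box there would be missed. The motif GCGNGGGCG, recognised by EGR proteins, was found in EGR1, KLF4 and KLF6, and in 8.41% of all windows; it can overlap GGGCGG. In the sequences below, 5′ to 3′, capitals mark the CArG boxes in EGR1 and EGR2, GCGNGGGCG in EGR1 and KLF6, and the E-box CACGTG, bound by MYC with MAX, in KLF6. The window of EGR1 is chr5:138465229-138465478 on the plus strand, that of EGR2 is the one of its 3 windows that holds the motif, chr10:62816367-62816616 on the minus strand, and that of KLF6 is chr10:3785210-3785459 on the minus strand.
EGR1: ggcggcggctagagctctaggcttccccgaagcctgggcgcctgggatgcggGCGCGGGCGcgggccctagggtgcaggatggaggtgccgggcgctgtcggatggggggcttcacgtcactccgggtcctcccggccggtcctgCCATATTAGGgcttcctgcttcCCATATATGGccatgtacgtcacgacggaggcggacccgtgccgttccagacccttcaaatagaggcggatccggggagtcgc
EGR2: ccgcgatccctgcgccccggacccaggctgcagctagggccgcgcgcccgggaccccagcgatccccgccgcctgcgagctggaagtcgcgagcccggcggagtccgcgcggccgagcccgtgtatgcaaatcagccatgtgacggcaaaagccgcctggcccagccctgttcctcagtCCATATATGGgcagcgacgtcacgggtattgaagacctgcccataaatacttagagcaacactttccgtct
KLF6: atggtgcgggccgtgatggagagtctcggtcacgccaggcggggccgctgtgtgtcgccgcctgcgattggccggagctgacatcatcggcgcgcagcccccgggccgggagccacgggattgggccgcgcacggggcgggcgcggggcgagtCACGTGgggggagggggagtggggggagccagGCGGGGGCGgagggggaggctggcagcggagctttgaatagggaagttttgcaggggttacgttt

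In EGR1 the CArG boxes lay 105 to 96 and 83 to 74 bases before the start, and the EGR motif lay 198 to 190 bases before it. In EGR2 the CArG box lay 71 to 62 bases before the start. CACGTG was found in EGR2, KLF4 and KLF6 and in 6.34% of all windows, TGACG, part of the cyclic AMP response element, in 4 of the 7 genes and in 21.2% of windows, GGGCGG, bound by SP1, in 5 of the 7 and in 42.6%, and TATAAA in 0 of the 7 and in 10.7%. An NF-kB site was found in 1 of the 7, EGR2, and in 9.96% of windows. These matches describe letters in the window and were not related to binding here.

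The probes of the IER genes lay far above the 75th percentile on every array. IER2, a nuclear protein of the early response to serum, had a signal of 30378 in control cells, 20395 with cordycepin and 24375 with cordyceps, which correspond to 117, 90.9 and 93.7 times the 75th percentile. Control cells were therefore the highest. The log2 ratio was -0.36 with cordycepin, or 1.28-fold lower, and -0.32 with cordyceps, or 1.25-fold lower, and 41.4% and 45.1% of genes differed as much. Both values were near 1 technical SD. With median scaling they were -0.63 with cordycepin and -0.05 with cordyceps.

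IER3, a stress-inducible regulator of apoptosis, was measured by 2 probes. The brighter probe had a signal of 23383 in control cells, 13232 with cordycepin and 22670 with cordyceps, or 89.9, 59.0 and 87.1 times the 75th percentile. The second probe had signals of 7173, 3453 and 6275, or 27.6, 15.4 and 24.1 times the 75th percentile. Both probes gave the same order, with the cordycepin culture lowest and the other cultures close together. With cordycepin the log2 ratio was -0.61 (1.52-fold lower) by the brighter probe and -0.84 (1.79-fold lower) by the second probe, and 20.6% and 10.3% of genes differed as much. With cordyceps the ratios were -0.05 and -0.19, and the first of these was above 0 under 4 of 8 alternatives. IER3 is the single member with a second measured probe.

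IER5, a cofactor in the heat shock response, had a signal of 24321 in control cells, 23549 with cordycepin and 15157 with cordyceps, or 93.5, 105.0 and 58.2 times the 75th percentile. The cordyceps array was the lowest. The log2 ratio was 0.17 with cordycepin, or 1.12-fold higher, and -0.68 with cordyceps, or 1.61-fold lower, with 14.5% of genes differing as much in the latter. Over the alternative settings the cordyceps ratio was -0.72 to -0.41, the smallest with median scaling. Its probe was in the corner of the array. Among 49 probes with a signal of at least 1000 within 10 rows and columns of it, the cordyceps to control ratio had a median of -0.27 and ranged from -1.15 to 0.75, and 7 of them lay at or below the ratio of IER5. The local background of the IER5 spot was not an outlier on any array, and no other probe of IER5 was measured.

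**Figure D3:**
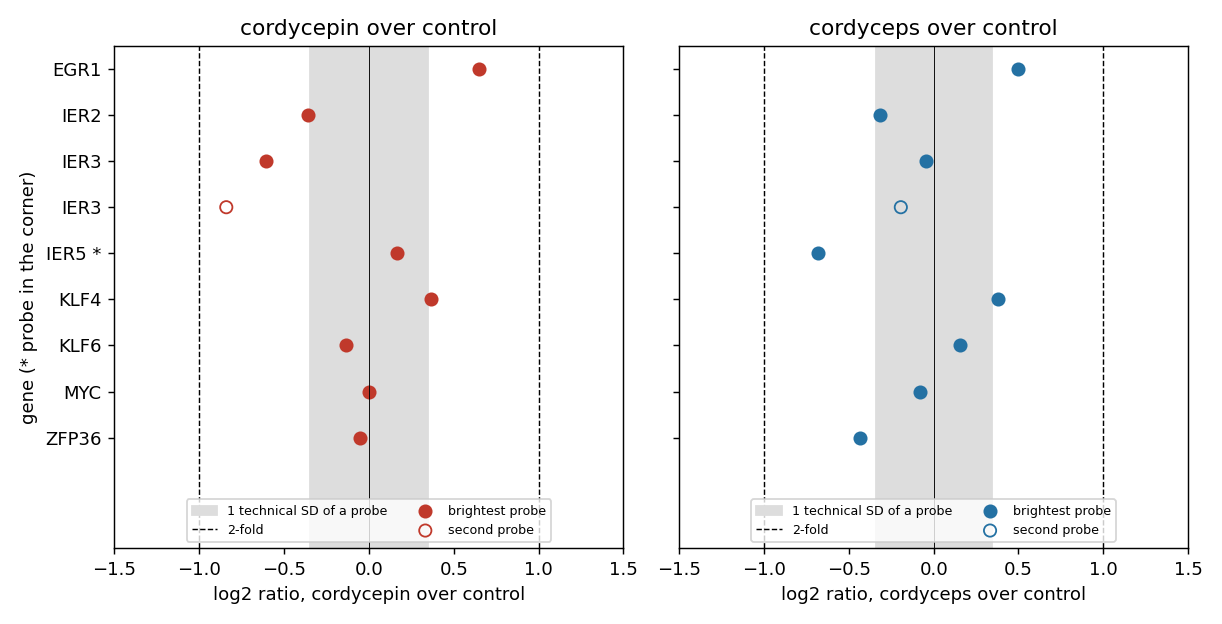
Log2 ratio of each measured member to control, for cordycepin (left) and cordyceps (right), by the brightest probe (filled) and, for IER3, the second probe (open). The grey band is 1 technical SD of a single probe on each side of 0 (0.35 and 0.34) and the dashed lines are 2-fold; all points lie inside the dashed lines. By the brightest probe 4 of 8 genes lie outside the band in each panel, and EGR1 and KLF4 do so in both, above 0.

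KLF4, a factor of epithelial differentiation and of pluripotency, lay below the 75th percentile, with a signal of 134 in control cells, 149 with cordycepin and 174 with cordyceps. The levels relative to the 75th percentile were 0.515, 0.662 and 0.668. Both treated cultures were therefore above control by almost the same amount, with a log2 ratio of 0.36 (1.29-fold) for cordycepin and 0.38 (1.30-fold) for cordyceps. These ratios were about 1 technical SD. Median scaling moved them apart, to 0.10 with cordycepin and 0.65 with cordyceps. KLF6, a broadly expressed factor described as a tumour suppressor, had a signal of 4815 in control cells, 3787 with cordycepin and 5365 with cordyceps, or 18.5, 16.9 and 20.6 times the 75th percentile. Its log2 ratios of -0.13 and 0.16 lay within 1 technical SD. With median scaling they were -0.40 and 0.43, beyond that SD. A second KLF6 probe, designed to another transcript, had signals of 12.0, 21.5 and 13.3 and was not well above background on any array.

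MYC was the member measured most often, since its probe was printed 10 times on each array. The median signal of the spots was 4118 in control cells, 3529 with cordycepin and 3894 with cordyceps, with ranges of 3926 to 4232, 3426 to 3686 and 3674 to 4115. The spots of the cordycepin array all lay below those of the control array before scaling, and their level matched that of control after scaling. The log2 ratio was 0.00 ± 0.016 (SE over 10 spots) with cordycepin and -0.08 ± 0.021 with cordyceps. This error describes spots of 1 hybridization and not cultures. The 3 spots in the corner gave a ratio of -0.062 with cordyceps and the 7 spots outside it gave -0.086. The choice of scaling moved the ratio further than the spots did, from -0.26 to 0.06 with cordycepin and from -0.08 to 0.19 with cordyceps.

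**Figure D4:**
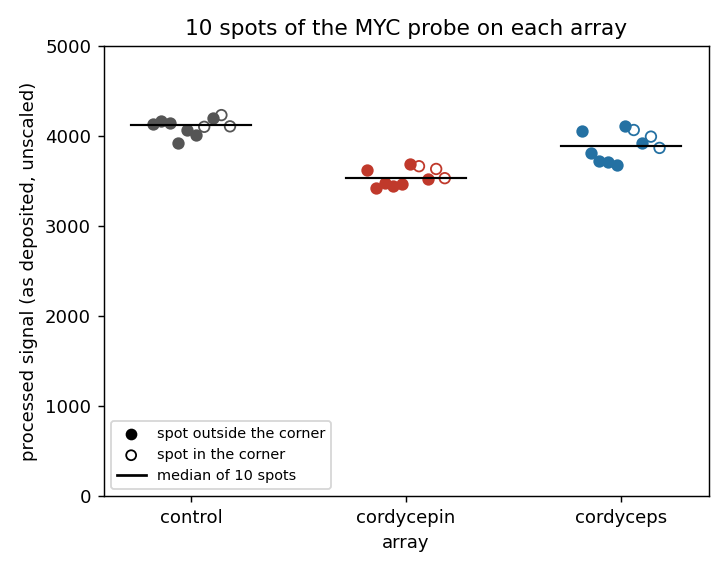
Processed signal, as deposited and unscaled, of the 10 spots of the MYC probe on each array; filled circles lie outside the corner, open circles in it, and the line is the median. The medians were 4118 (control), 3529 (cordycepin) and 3894 (cordyceps), and the spots in the corner lay within the range of the others with cordycepin and cordyceps, while 1 of the 3 was the brightest of the control array.

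ZFP36 had a signal of 10695 in control cells, 8887 with cordycepin and 7931 with cordyceps, or 41.1, 39.6 and 30.5 times the 75th percentile. Control and cordycepin were close, and cordyceps was the lowest. The log2 ratio was -0.05 with cordycepin, within 1 technical SD, and -0.43 with cordyceps, or 1.35-fold lower, which 31.7% of genes reached or exceeded. With median scaling the ratios were -0.32 and -0.16, and cordycepin was then the lowest.

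Between the treatments, 0 of 8 genes were 2-fold or more higher with cordycepin than with cordyceps and 0 were lower, against 7.75% and 5.57% of all genes. The technical SD for this pair of arrays was 0.42. IER5 had a log2 ratio of 0.85, or 1.80-fold higher with cordycepin. IER3 had a ratio of -0.56 by the brighter probe and -0.65 by the second. At 1.5-fold, IER5 was called higher and 0 of the 8 lower, against 16.9% and 12.7% of all genes. The other 6 genes lay within 1 technical SD, between -0.29 for KLF6 and 0.38 for ZFP36. With median scaling the ratios were -0.82 for KLF6, -0.58 for IER2, -0.55 for KLF4 and -0.45 for MYC, beyond that SD, and -0.38 for EGR1 and -0.16 for ZFP36; the signs of MYC, EGR1 and ZFP36 had changed.

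Other immediate early genes were taken from a list of 25 genes, 24 of which could be named on the array. With cordycepin, 8 of 24 detected genes were at least 2-fold higher and 1 was lower, beside the 5.95% and 3.57% of all genes, and the median log2 ratio of those measured on both arrays was 0.47. CCN2, a secreted matrix protein, had relative signals of 0.144 in control cells and 0.610 with cordycepin, a log2 ratio of 2.09 or 4.24-fold, which was 2.10-fold with normexp background correction. Its relative CCN1 had relative signals of 6.63 and 19.2, or 2.90-fold. ATF3, a stress-induced factor, had relative signals of 1.99 and 7.90, or 3.97-fold, and its other probes gave log2 ratios of -0.01 to 1.01. TNFAIP3, a deubiquitinase that limits NF-kB, was 2.70-fold higher. The gene that was lower was FOS, a subunit of AP-1 named here after its values were seen, with relative signals of 4.14 and 1.86, or 2.22-fold lower. When the arrays were scaled by their medians, 5 genes were higher and 2 were lower.

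With cordyceps, 4 of 21 detected genes of this list were at least 2-fold higher and 2 were lower, beside the 4.19% and 3.15% of all genes, and the median was 0.03. ATF3 had relative signals of 1.99 in control cells and 17.5 with cordyceps, a log2 ratio of 3.13 or 8.78-fold, and its other probes ranged from -0.50 to 1.85. PPP1R15A, which directs dephosphorylation of eIF2alpha, had relative signals of 0.919 and 5.21, or 5.67-fold. TNFAIP3 was 2.76-fold higher and PTGS2, the inducible cyclooxygenase, 2.18-fold higher. The lower genes, named after their values were seen, were FOS, 2.11-fold, and MCL1, 2.07-fold by a probe in the corner. Neither was 2-fold lower with median scaling.

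**Figure D5:**
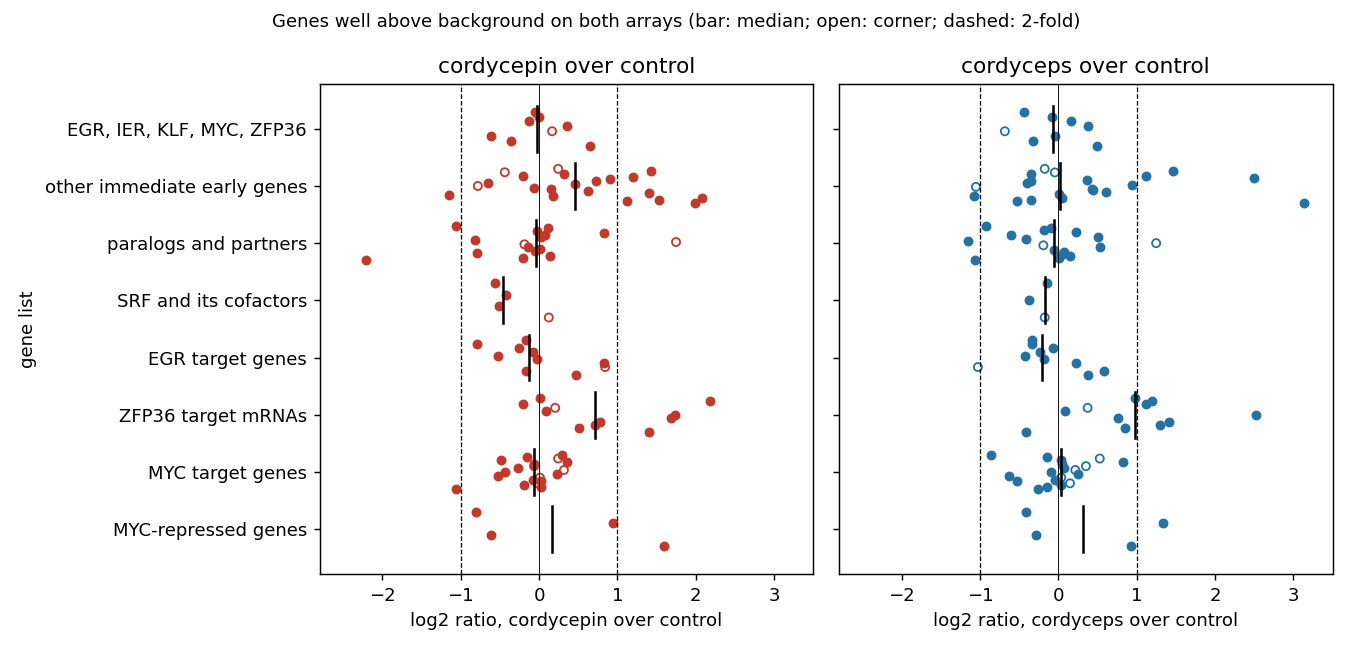
Log2 ratio to control for cordycepin (left) and cordyceps (right) of the genes of each list that were well above background on both arrays; each point is a gene, open points lie in the corner, bars are medians and dashed lines are 2-fold. The top row holds the 8 measured members, none past 2-fold, and the second row holds the other immediate early genes, with medians of 0.47 and 0.03.

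Paralogs and partners of the members were taken as a list of 18 genes. With cordycepin, 1 of 17 detected genes was at least 2-fold higher and 3 were lower, beside 5.95% and 3.57% of all genes, with a median of -0.04. With cordyceps, 1 was higher and 2 were lower, beside 4.19% and 3.15%, with a median of -0.05. The counts of lower genes became 5 and 0 with median scaling. IER5L, the paralog of IER5, had a signal of 18039 in control cells, 3351 with cordycepin and 8659 with cordyceps. It was 4.64-fold lower with cordycepin and 2.08-fold lower with cordyceps, and its second probe gave log2 ratios of -0.68 and -0.31. MYCN, the paralog of MYC, was well above background in control cells with a signal of 121 and not with cordycepin, at 20.2, and was at least 4.76-fold lower; with normexp background correction the value was 1.82-fold. MXD4, an antagonist of MYC at MAX, was 2.21-fold lower with cordyceps, with a log2 ratio of -0.80 by its other probe. MXD1, of the same family, named after its values were seen, had log2 ratios of 1.75 with cordycepin and 1.25 with cordyceps by a probe in the corner, and 1.67 and 1.01 by its other probe, outside the corner. The remaining lower gene with cordycepin was ZFP36L2, the paralog of ZFP36, at 2.09-fold, with 2 of its 10 spots in the corner. The NAB proteins bind and repress EGR factors: NAB1 had log2 ratios of 0.83 and 0.22, with 0.29 and 0.12 by its other probe, and NAB2 had -0.02 and -0.18.

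Upstream of the members, 0 of 5 detected genes for serum response factor and its cofactors were past 2-fold with either treatment. Of all genes, 5.95% were higher and 3.57% lower with cordycepin, and 4.19% and 3.15% with cordyceps. MRTFB, the brightest, had log2 ratios of -0.42 with cordycepin and -0.14 with cordyceps. Downstream, of 10 genes described as EGR targets 0 were past 2-fold with cordycepin, beside the 5.95% higher and 3.57% lower of all genes. Their median was -0.12. The median with cordyceps was -0.21, and the count past 2-fold with cordyceps is not reported here. NAB1 and NAB2, whose values are given above, belong to this list as well.

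Of 12 mRNAs described as targets of ZFP36, 5 of 12 detected were at least 2-fold higher with cordycepin and 5 of 11 with cordyceps, beside 5.95% and 4.19% of all genes. None was lower, beside 3.57% and 3.15%. The medians were 0.72 and 0.98. With cordycepin, CSF2, a colony stimulating factor, was well above background with a signal of 89.3 and not in control cells, at 8.06, and was at least 5.55-fold higher. TNF was 4.53-fold, IL6 3.32-fold and IL1B 3.21-fold higher, all of them inflammatory cytokines. With normexp background correction CSF2 was 2.26-fold and TNF 2.33-fold higher. With cordyceps, IL6 was 5.74-fold higher, TNF was 2.29-fold higher (1.46-fold with normexp), and the chemokines CXCL8 and CXCL2 were 2.66-fold and 2.46-fold higher, with a log2 ratio of 1.21 by the other probe of CXCL2. ZFP36 itself had log2 ratios of -0.05 and -0.43 in the same arrays, and of -0.32 and -0.16 with median scaling. A link between the level of ZFP36 and these mRNAs was not tested. The list holds PTGS2, which the list of other immediate early genes also holds.

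Of 20 genes described as activated by MYC, 0 of 19 detected were higher and 1 was lower with cordycepin, beside 5.95% and 3.57% of all genes. With cordyceps 0 of 19 were past 2-fold, beside 4.19% higher and 3.15% lower of all genes. The medians were -0.06 and 0.04. The lower gene was APEX1, a DNA repair nuclease, with relative signals of 2.87 in control cells and 1.38 with cordycepin, or 2.08-fold lower, and 1.98-fold lower with normexp. NPM1, a nucleolar protein and the brightest of the list, had log2 ratios of -0.06 and 0.05, and its other probes gave -0.49 to -0.32 with cordycepin and -0.13 to 0.07 with cordyceps. Of 5 genes described as repressed by MYC, 1 of 4 detected was higher with each treatment, beside 5.95% of all genes with cordycepin and 4.19% with cordyceps. With cordycepin this was CDKN1A, an inhibitor of cyclin-dependent kinases, at 3.03-fold, with relative signals of 0.545 and 1.65. With cordyceps it was GADD45A, a growth arrest gene, at 2.53-fold, with relative signals of 7.18 and 18.2. NDRG1, the brightest of the 5, had log2 ratios of -0.80 and -0.41.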

How the data were processed

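Total RNA of 3 A549 cultures was labelled with Cy3 and hybridized to 1 array each, on the same slide. The authors deposited the spot intensity values of the Agilent Feature Extraction software (version 11.5.1.1), background-subtracted within the array and not scaled between arrays, and a value table that served as an alternative. The methods of the paper name Cy3 and Cy5, whereas the files hold 1 channel per sample.

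Control spots and spots flagged as outliers (106, 80 and 63 of 60901 spots on the control, cordycepin and cordyceps arrays) were left out; no spot was saturated. The log2 of the processed signal was reduced by the 75th percentile of the array, and spots of a probe were averaged. Detection required that 50% or more of the spots of a probe were well above background. Changes were called at 2-fold; where a probe was detected on 1 of the arrays compared, the difference was a bound against the higher of the signal of the undetected probe and the lowest detected signal of that array. Of 58201 probes, 31104 were named through RefSeq accessions (GRCh38.p14), and the brightest probe stood for a gene. No test was run with 1 array per condition, and this number of arrays limits precision.

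The members and lists were chosen with earlier results of these data known. Of the other lists, up to 4 genes with the largest changes past 2-fold outside the corner were named per comparison, or the brightest gene where fewer than 2 passed. The corner is the array rows above 5/8 of the highest row and the columns above the midpoint. The alternatives were median scaling, quantile normalization, the value table, normexp (offset 50), the 75th percentile of the probes detected on every array, the median over the probes of a gene, outlier spots kept, the corner left out, and thresholds of 1.5-fold and 3-fold. The value of 1 listed gene is not reported here. Promoter windows came from a RefSeq table. The calling step was tested on simulated data. Python 3.11.15 with numpy 2.4.6, pandas 2.3.3, scipy 1.17.1 and matplotlib 3.10.9 was used. For normexp, limma 3.58.1 was run in R 4.3.3.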

Additional observations from a re-analysis of the deposited data

How the results depend on the processing

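No member was past 2-fold under the 75th percentile scaling, and this held for each alternative with the 2-fold threshold except that median scaling put IER3 at a log2 ratio of -1.10 for cordycepin over cordyceps, a count of 1 lower gene. With a threshold of 1.5-fold, 1 gene was higher (EGR1) and 1 was lower (IER3) for cordycepin over control, 1 was lower (IER5) for cordyceps over control, and 1 was higher (IER5) for cordycepin over cordyceps. Of 189 values of the member ratios under the alternatives, 181 moved by less than the technical SD and 8 moved by more; those 8 were all for cordycepin over cordyceps with median scaling, where the median over all probes went from 0.05 to -0.49. For the comparisons with control that median went from -0.03 to -0.29 with cordycepin and from -0.12 to 0.15 with cordyceps. The ratio to control changed sign under some alternative for IER5 (-0.10 with median scaling), MYC and ZFP36 with cordycepin, and for IER3 and MYC with cordyceps. For cordycepin over cordyceps it changed sign for EGR1, KLF4, MYC and ZFP36. With the corner left out, IER5 had no value. The alternatives for the other gene lists were chosen after seeing the data. They put the other immediate early genes at 5 to 9 higher with cordycepin and 4 to 5 with cordyceps, and the ZFP36 targets at 5 and at 4 to 8. They put the paralogs and partners at 2 to 5 lower with cordycepin and 0 to 2 with cordyceps.

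No paired analysis was possible because there is 1 array per condition, and leaving out a replicate was not possible either. EGR2, EGR3 and the second KLF6 probe were too dim to compare. The values of EGR1 and KLF4 rest on dim signals, 58.0 to 81.8 and 134 to 174, beside lowest detected signals of 18.6 to 34.5.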
